A study of Mus musculus with 6 samples.

Results

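Expressed long noncoding RNAs (lncRNAs) were taken as the 610 autosomal genes that GENCODE annotates as lincRNA, antisense, sense intronic or bidirectional promoter lncRNA and whose mean over 6 mouse libraries was at least 5 CPM (a gene's share of the library's estimated counts, scaled to a fixed total). They were drawn from 5838 candidate lncRNA genes among 35856 genes in the files, and H19, Meg3, Gas5 and the Snhg genes were left out by the rule. By annotation 312 were lincRNAs, which lie between genes, 209 were antisense, 75 were sense intronic and 14 started from a promoter shared with another gene. All 610 were among the 15933 genes that entered the test. The genes were chosen by their mean level over all 6 libraries, so levels are given as a description. Of the 610, 565 reached 5 CPM in the mean of both arms, 31 only in the libraries labelled Mdm2 deleted and 14 only in the vehicle libraries, so these last 45 genes were kept by the arm in which they were higher. Gm45388 (5.001 CPM), Bvht (5.02 CPM) and 2700016F22Rik (5.03 CPM) lay just inside the limit, and Gm16755 (4.99 CPM), Gm7616 (4.99 CPM) and Gm9951 (4.98 CPM) just outside it.

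The cells, per the labels, were Mdm2fl/flp53-/-, with floxed Mdm2 and no p53, and were of 3 kinds: a T cell lymphoma and a sarcoma held in short-term culture, and fibroblasts grown out of ear punches. A retrovirus brought in CreERT2, a recombinase that 4-hydroxytamoxifen (4-OHT) switches on, together with GFP, or GFP alone, but which vector went into which library is not labelled. Each kind gave 1 library after 1 mM 4-OHT, labelled Mdm2 deleted, and 1 after ethanol, labelled vehicle, after 6 h for lymphoma and 48 h for the other kinds. Deletion as labelled and exposure to 4-OHT always go together and cannot be told apart. Per-library values below are in the order fibroblasts, lymphoma, sarcoma, as TMM-scaled CPM (scaled for library composition by edgeR's trimmed mean of M-values), unless another unit is named.

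The values went against the labels on several counts, so groups are called by their labels. Mdm2 was at 28.4, 28.0 and 28.5 CPM in the vehicle libraries and 30.5, 31.1 and 31.1 CPM in those labelled deleted (log2 fold change 0.13, edgeR adjusted p = 0.0539), although a gene total sums all exons and does not isolate the floxed ones. Of 14 T cell markers, Cd3d, Cd3e, Cd247, Cd2 and Cd8b1 were at 0 in every library and 2 reached 1 CPM in any library, while 11 of 12 fibroblast markers did. The fibroblast markers summed to between 13418 and 13876 CPM in the vehicle libraries and between 7707 and 7871 CPM in the others. Of 8 muscle markers 0 reached 1 CPM in any library. Libraries of the same arm differed by an SD of 0.111 to 0.166 on the log2 scale across genes at 5 CPM or more, and libraries of different arms by 0.497 to 0.518, whatever their cell label. Nothing shows that libraries of an arm came from separate cultures beyond their cell labels, so the p-values measure the spread among these 6 libraries. Library totals ran from 26243064 to 37517726 estimated counts, and no expressed lncRNA had fewer than 74 counts in any library.

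An lncRNA is transcribed like a messenger RNA but is not known to be translated. Some, such as Malat1 in nuclear speckles and Neat1 in paraspeckles, belong to bodies of the nucleus; others act on the gene beside them, serve as precursors of microRNAs, or arise from an active promoter without a known role of their own. Many are short-lived and nuclear, and total RNA libraries such as these capture them together with unspliced precursors of neighbouring genes.

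Of the 610 genes, 360 were not called between the arms. At an edgeR adjusted p under 0.05, 202 were higher (33.1%) and 48 were lower (7.87%), beside 28.6% higher and 29.9% lower of the 10847 genes tested at 5 CPM or more. The share of higher lncRNAs was near that background, and the share of lower ones was below it. Over all 15933 genes tested the shares were 25.0% and 24.6%. Most of the lncRNAs were weakly expressed, with a median of 10.7 CPM and 473 of them under 20 CPM. At 5 to 20 CPM, 30.2% of the lncRNAs were higher and 6.13% lower, beside 22.9% and 32.1% of 3397 protein-coding genes at that level. The median log2 fold change of the 610 was 0.14, against -0.00012 for all genes at 5 CPM or more and -0.05 for protein-coding genes at 5 to 20 CPM.

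**Figure D1:**
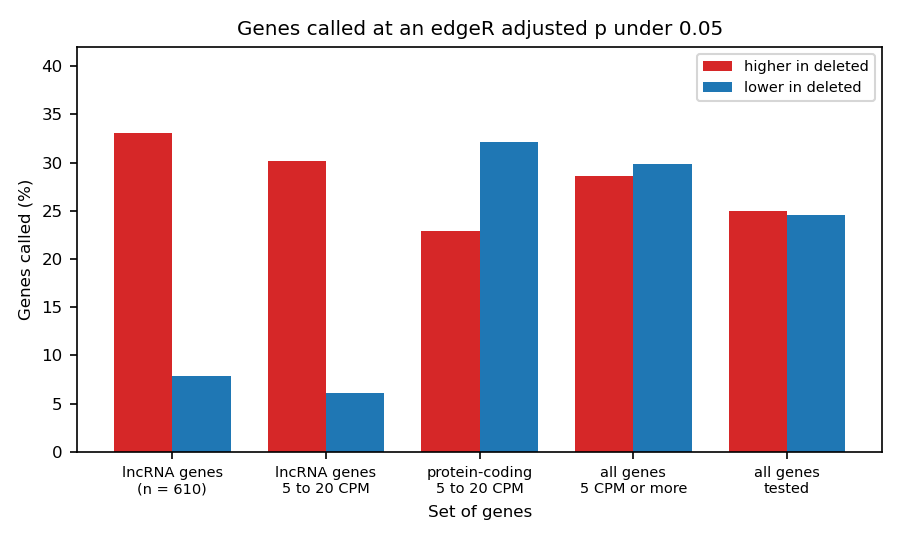
Bars give the percentage of genes called higher (red) or lower (blue) in the libraries labelled Mdm2 deleted at an edgeR adjusted p under 0.05, in 5 sets of genes. The lncRNA genes had 33.1% higher and 7.87% lower, and protein-coding genes of 5 to 20 CPM had 22.9% higher and 32.1% lower.

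The changes were small. Only 5 of the 610 rose at least 2-fold (0.820%, beside 2.77% of all genes at 5 CPM or more), and 0 fell at least 2-fold (beside 0.664%), although Gm11816 reached a log2 change of -0.996. Of the 5, 2 met 5 CPM only through the deleted arm, and among the 565 genes at 5 CPM in both arms 3 rose at least 2-fold (0.531%). A change of 0.5 or more on the log2 scale was called upward in 32 and downward in 12. No share over all genes was taken at that size, so these counts are a description only. The arms did not overlap in 190 genes that were higher (31.1%, beside 30.2% of all genes at 5 CPM or more) and in 50 that were lower (8.20%, beside 32.3%). The sign was the same in all 3 labelled pairs for 354 (58.0%, beside 74.3%). The count of higher lncRNAs depended on the sarcoma pair: without it 102 were higher and 49 lower. DESeq2 called 77 higher and 26 lower, and limma on log2(TPM + 1) 69 and 15. Of the 565 genes at 5 CPM in both arms, 185 were higher and 38 lower.

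**Figure D2:**
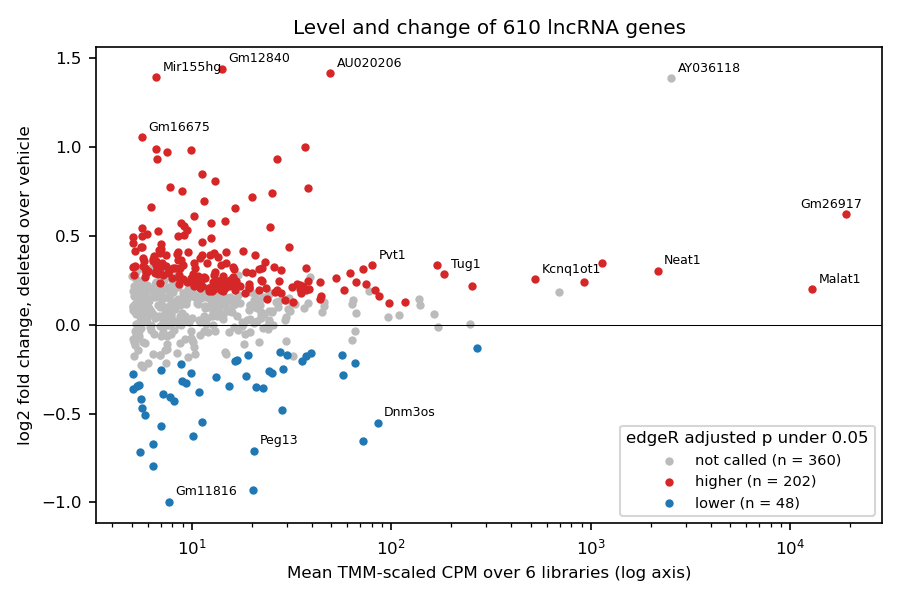
Each point is 1 of the 610 lncRNA genes, with its mean TMM-scaled CPM over 6 libraries on a log x axis and its edgeR log2 fold change on the y axis. Red points (202) were called higher, blue points (48) lower, and grey points (360) were not called, among them AY036118 at 1.39.

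The 3 labelled pairs were not alike in size. The median log2 ratio of the 610 genes (of CPM + 0.5, with no test, since each group holds 1 library) was 0.04 in the fibroblast pair, 0.08 in the lymphoma pair and 0.27 in the sarcoma pair. At least 2-fold higher were 5, 4 and 12 genes in that order (0.820%, 0.656% and 1.97%), beside 2.77%, 2.78% and 2.80% of all genes at 5 CPM or more. At least 2-fold lower were 0, 0 and 1 (beside 0.590%, 0.691% and 0.691%). AU020206, Mir155hg and Gm12840 were at least 2-fold higher in every pair, and Gm11816, in the sarcoma pair, was the gene at least 2-fold lower.

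Malat1 and Neat1 are known from bodies of the nucleus. Malat1 (chr19:5795690-5802672 on GRCm38, minus strand), which is held in nuclear speckles beside splicing factors, was at 13046, 11250 and 11769 CPM in the vehicle libraries and at 13088, 13778 and 14552 CPM in those labelled deleted. Every deleted library was above every vehicle library, but the fibroblast pair differed by little. The log2 fold change was 0.20 (SE 0.0585, edgeR adjusted p = 0.0138), and the call was lost without the lymphoma pair (0.16, edgeR adjusted p = 0.148), without the sarcoma pair (0.15, adjusted p = 0.0716) and with DESeq2 (0.20, adjusted p = 0.105). Of 27 genes of splicing and nuclear speckles, 4 were higher and 5 lower, with a median of 0.04, beside 28.6% higher and 29.9% lower of all genes at 5 CPM or more.

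Neat1 (chr19:5824708-5845478, minus strand), the RNA on which paraspeckles are built, was at 1931, 2121 and 1772 CPM against 2314, 2441 and 2419 CPM. The arms did not overlap. Its log2 fold change was 0.30 (SE 0.0531, edgeR adjusted p = 0.000592), and on summed TPM, a scale per length, it was 0.07 with limma (adjusted p = 0.586). The gene has a long form of 20771 bases, the form that scaffolds paraspeckles, and a short form of 3004 bases whose model lies within the span of the long one near its 5′ end. The long form was estimated at 1508, 1707 and 1414 plain CPM in the vehicle libraries and at 1952, 2134 and 2012 CPM in those labelled deleted. The short form was estimated at 384, 413 and 359 CPM against 312, 338 and 376 CPM. The long form was higher in every deleted library than in any vehicle library. The short form was lower in the deleted library of the fibroblast and lymphoma pairs and higher in that of the sarcoma pair, and its arms overlapped. Neither form was tested by itself. Most short-form sequence is also in the long form, so the split between the forms is the quantifier's estimate.

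Of 24 transcripts of paraspeckle proteins, 1 was higher and 11 lower, with a median log2 fold change of -0.11, beside 28.6% and 29.9% of all genes at 5 CPM or more. Taf15, an RNA-binding protein of the FET family, was the 1 that rose, from 29.9 ± 3.57 to 39.6 ± 2.21 CPM (SD, n = 3 per arm). Nono, a core paraspeckle protein, fell from 284 ± 11.6 to 234 ± 6.23 CPM, a log2 change of -0.28 (edgeR adjusted p = 0.000205). Hnrnpa1 fell from 754 ± 162 to 491 ± 87.1 CPM. Of 26 genes of nuclear RNA decay, the machinery that removes many lncRNAs, 9 were higher and 2 lower, with a median of 0.00, beside the same background of 28.6% and 29.9%. The exosome subunit Exosc1 rose by 0.54 and the cap-binding protein Ncbp1 by 0.52 on the log2 scale, and the exosome nuclease Exosc10 and Nrde2 fell by 0.19 and 0.26.

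Next to these stood 3 lncRNA genes at the ribosomal RNA repeat annotated on chromosome 17, Gm26917 (chr17:39843013-39846341), Gm42418 and AY036118. The last pair overlap an annotated ribosomal RNA gene and Gm26917 lies beside it, so reads of precursor or residual ribosomal RNA cannot be told apart from theirs. Gm26917 was the most counted of the 610, at 12883, 20719 and 12334 CPM in the vehicle libraries and 23698, 22178 and 22661 CPM in those labelled deleted (log2 fold change 0.62, edgeR adjusted p = 0.00110). AY036118 was at 5599, 969 and 245 CPM against 2825, 2922 and 2645 CPM. Its vehicle libraries lay on either side of the deleted ones, and its log2 fold change of 1.39 was not called (edgeR adjusted p = 0.0833). The value depended on which pair was left out: it was 0.30 without the sarcoma pair (edgeR adjusted p = 0.651), 1.22 without the lymphoma pair (adjusted p = 0.172) and 2.48 without the fibroblast pair (adjusted p = 6.68e-27). It was 0.30 without the replicate block (edgeR adjusted p = 0.770), and it was called without a filter on low counts (1.36) and with long RNAs only (1.37, adjusted p = 0.049996). Annotated ribosomal RNA genes stood in the same order in the vehicle libraries, at 2.91%, 0.631% and 0.201% of counts, and at 1.54%, 1.63% and 1.64% in the others, and their part in these values was not tested.

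The 610 genes together took 4.67%, 4.97% and 3.82% of the estimated counts of the vehicle libraries and 5.54%, 5.74% and 5.65% of those labelled deleted. The means were 4.48% ± 0.593 and 5.64% ± 0.0974 (SD, n = 3 per arm), and the two-sided exact permutation test gave p = 0.1, the smallest that 3 libraries against 3 allow. The 3 genes of the ribosomal repeat supplied 0.821 of the 1.16 percentage points between the means. Without them, an exclusion chosen after seeing the data, the means were 2.63% ± 0.131 and 2.97% ± 0.139, again without overlap (exact permutation p = 0.1). Without the 2 most counted genes, Gm26917 and Malat1, the arms overlapped, at 2.12%, 1.76% and 1.40% against 1.94%, 2.09% and 1.96% (exact permutation p = 0.4). Malat1 took 1.20% ± 0.0787 and 1.37% ± 0.0814 (exact permutation p = 0.2), Neat1 0.193% ± 0.0177 and 0.238% ± 0.0105 (p = 0.1), and the other 605 genes 1.24% ± 0.0977 and 1.36% ± 0.0597 (p = 0.2).

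**Figure D3:**
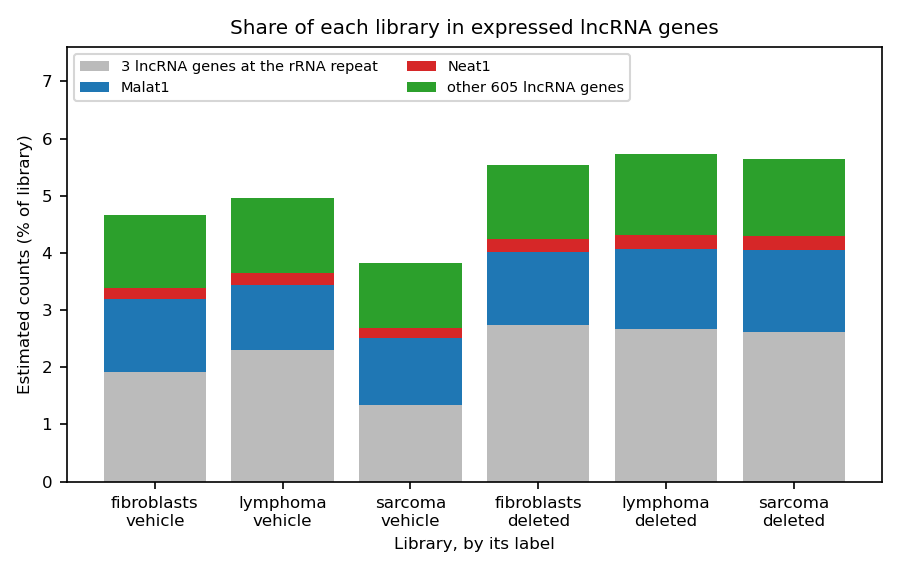
Stacked bars give the percentage of each library's estimated counts in the 610 lncRNA genes, split into 3 genes at the ribosomal repeat (grey), Malat1 (blue), Neat1 (red) and the other 605 (green). The totals were 4.67%, 4.97% and 3.82% in the vehicle libraries and 5.54%, 5.74% and 5.65% in those labelled deleted.

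Per length, Gm26917 (2616 TPM), AY036118 (1462 TPM), Malat1 (1198 TPM), Gm42428 (764 TPM) and Gm10076 (545 TPM) had the highest mean levels. Gm42428, which has near-identical copies in Gm43305 and Gm48275, was at 268, 245 and 227 CPM against 230, 241 and 270 CPM, and its arms overlapped. Gm10076 is a near-identical copy of part of Rpl41, a ribosomal protein gene, so its counts are a split between copies. It was at 17.03, 16.8 and 17.7 CPM against 14.2, 12.5 and 13.9 CPM (log2 fold change -0.34, edgeR adjusted p = 0.00102). The mean of Gm10076 was 15.4 CPM with 384 bases of exon, against 247 CPM and 302 bases for Gm42428. Its rank holds for TPM and not for counts.

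Several lncRNAs are known as precursors of microRNAs, short RNAs that pair with messages through a seed at bases 2 to 8. Of 17 genes that hold an annotated microRNA, 4 were higher (23.5%) and 2 lower (11.8%), beside 28.6% and 29.9% of all genes at 5 CPM or more, and the mature microRNAs themselves were not analysed here. The mature sequences (RefSeq, GRCm38.p6) of the hosts that changed most in each direction are shown because a change in the host is of interest for these products, with the seed in capitals.
miR-155-5p, from Mir155hg: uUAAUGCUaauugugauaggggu
miR-199a-5p, from Dnm3os: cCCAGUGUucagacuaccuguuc
miR-214-3p, from Dnm3os: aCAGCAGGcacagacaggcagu
miR-17-5p, from Mir17hg: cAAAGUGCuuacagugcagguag
miR-20a-5p, from Mir17hg: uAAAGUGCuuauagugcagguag
The last pair share a seed, and the other 3 seeds differ from it and from each other.

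Mir155hg (chr16:84703167-84715245, plus strand), the precursor of miR-155, a microRNA of activated immune cells, was at 4.39, 3.31 and 3.32 CPM in the vehicle libraries. In the libraries labelled deleted it was at 10.0, 9.17 and 9.54 CPM. The arms did not overlap, and the log2 fold change was 1.39 (SE 0.101, edgeR adjusted p = 5.68e-07). Mir155hg is one of the 31 genes that met the limit of 5 CPM only through the deleted arm, so a difference in this direction was built into its choice. Its nearest protein-coding gene, Mrpl39, 2331 bp away, changed by 0.14 (edgeR adjusted p = 0.0409). Mir17hg, the precursor of the miR-17 to miR-92 cluster known from Myc-driven growth, was at 18.2, 18.2 and 17.8 CPM against 21.4, 22.9 and 22.2 CPM (log2 fold change 0.29, edgeR adjusted p = 0.00144).

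Dnm3os (chr1:162217623-162225550, plus strand) went the other way. This antisense RNA lies in an intron of Dnm3, is a precursor of miR-199a and miR-214, and is known from skeletal growth and fibroblasts. It was at 107, 110.0 and 88.3 CPM in the vehicle libraries and at 72.1, 68.7 and 67.0 CPM in those labelled deleted. The arms did not overlap (log2 fold change -0.55, SE 0.0524, edgeR adjusted p = 5.52e-06). Fibroblast markers were lower in the same libraries, 9 of 11 tested, and their part in this difference was not tested. Dnm3 itself was at 0.309 and 0.340 CPM in the arm means. Carmn, an lncRNA known from smooth muscle and heart, was also lower, at 31.9, 33.9 and 33.6 CPM against 24.5, 24.7 and 22.1 CPM (log2 fold change -0.48, edgeR adjusted p = 3.57e-05).

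The largest rises were led by Gm12840, AU020206 and Mir155hg. Gm12840 was at 6.81, 8.51 and 7.70 CPM against 21.4, 20.3 and 20.8 CPM (log2 fold change 1.44, edgeR adjusted p = 5.66e-08), and Gm20186 at 23.8, 24.8 and 25.1 CPM against 45.7, 46.9 and 54.9 CPM (1.00, adjusted p = 4.09e-08). These genes and Gm26809 are near-identical over at least 50% of a transcript, so the split between them is uncertain. AU020206 (chr7:75769038-75782099, minus strand), which has no such copy, was at 27.0, 30.0 and 24.2 CPM in the vehicle libraries. It was at 72.4, 73.2 and 70.2 CPM in the libraries labelled deleted, with a log2 fold change of 1.42 (SE 0.0528, edgeR adjusted p = 1.41e-09). The difference was many times the spread within either arm. Its nearest protein-coding gene, Akap13, which encodes an anchoring protein for protein kinase A, was at 131 and 133 CPM in the arm means and was not called (0.03, edgeR adjusted p = 0.571).

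The 12 largest rises were picked among called genes with the same sign in every pair, so arms that do not overlap follow largely from the choice. The arms did not overlap in 81.7% of all 202 higher lncRNAs, and upward in 30.2% of all genes at 5 CPM or more. Of the 12 largest rises, 11 had arms that did not overlap, and 4 (Mir155hg, Gm16675, Gm7160 and Gm11851) met 5 CPM only through the deleted arm. The exception was Gm23925, at 3.05, 8.30 and 4.20 CPM against 7.497, 8.57 and 13.5 CPM. It is 132 bases long, matches a small nucleolar RNA and Snhg17, and lost its call without the sarcoma pair (0.53, edgeR adjusted p = 0.0884) and with DESeq2 (1.01, adjusted p = 0.0881). Gm11261 and Gm11851, copies of each other, rose by 0.98 and 0.93 on the log2 scale. They have 12 and 5 near-identical copies, among them transcripts of the protein-coding genes Xdh and Ppp2r5a, so the split of their counts is uncertain. Also among the 12, and without a near-identical copy, were 9530082P21Rik (0.93, from 19.2, 18.7 and 17.4 CPM to 35.8, 33.9 and 35.5 CPM), Gm20400 (0.85) and Gm16157 (0.81). 9530082P21Rik runs antisense over exons of Flywch1, which was not called (0.11, edgeR adjusted p = 0.0850). Gm16157 runs antisense to Fam169b, which went the other way (-2.18, edgeR adjusted p = 0.00382) at only 0.552 and 0.117 CPM. Among the 12, the nearest protein-coding gene was itself higher in 3, lower in 4, not called in 2 and not tested in 3.

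**Figure D4:**
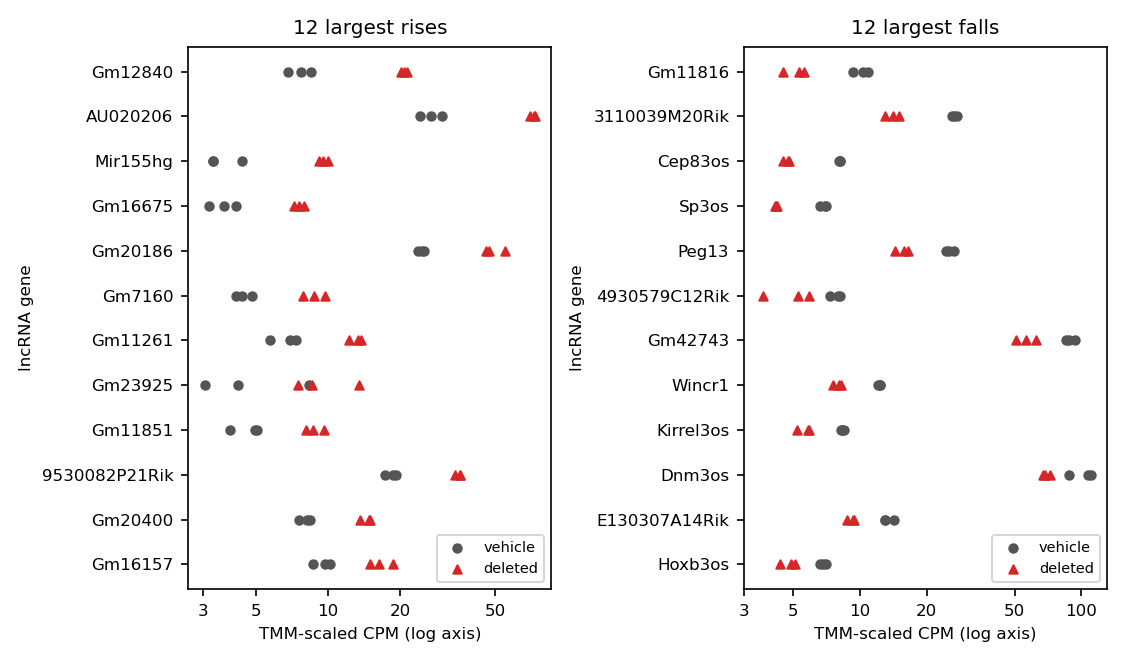
TMM-scaled CPM on a log axis of the 12 largest rises (left) and 12 largest falls (right) among called lncRNA genes with the same sign in every labelled pair, with 3 vehicle libraries as grey circles and 3 libraries labelled Mdm2 deleted as red triangles. The arms do not overlap in 11 of the 12 rises, Gm23925 being the exception, nor in any of the 12 falls, which follows largely from the choice of genes.

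Gm16675, Gm7160 and Gm20186, among the largest rises, start head to head with a protein-coding gene within 1 kb, a layout in which one promoter region is read in both directions. Gm16675 (chr8:46668808-46739515, minus strand) starts 217 bp from Irf2, which encodes an interferon regulatory factor. Gm7160 (chr1:105979350-105990282, minus strand) starts 124 bp from Zcchc2, which encodes a zinc finger protein. Promoter windows from 250 bases before to 50 bases after the RefSeq start (GRCm38.p6, minus strand, 5′ to 3′) are printed because they are shared with the partner over 271 bp for Gm16675 and 223 bp for Gm7160. Ptgs2os2, described with the inflammation-linked genes, is added since its window holds a motif match. Capitals mark matches to the core of the interferon-stimulated response element (GAAA, 2 bases of any kind, GAAA) and to the NF-kB site (GGG, 2 bases of any kind, TTTCC), both searched on both strands.
Gm16675, chr8:46739466-46739765: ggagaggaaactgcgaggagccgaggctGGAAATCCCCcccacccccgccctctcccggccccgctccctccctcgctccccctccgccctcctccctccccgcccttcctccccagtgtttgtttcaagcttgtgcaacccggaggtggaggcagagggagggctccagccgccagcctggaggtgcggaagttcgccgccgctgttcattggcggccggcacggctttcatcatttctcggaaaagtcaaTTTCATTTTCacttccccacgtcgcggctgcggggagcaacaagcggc
Gm7160, chr1:105990233-105990532: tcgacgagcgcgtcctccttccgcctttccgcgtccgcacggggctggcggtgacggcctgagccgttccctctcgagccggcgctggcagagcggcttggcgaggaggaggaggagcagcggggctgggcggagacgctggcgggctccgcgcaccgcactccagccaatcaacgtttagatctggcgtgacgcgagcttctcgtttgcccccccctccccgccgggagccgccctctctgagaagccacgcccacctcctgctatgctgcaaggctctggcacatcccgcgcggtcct
Ptgs2os2, chr1:150164899-150165198: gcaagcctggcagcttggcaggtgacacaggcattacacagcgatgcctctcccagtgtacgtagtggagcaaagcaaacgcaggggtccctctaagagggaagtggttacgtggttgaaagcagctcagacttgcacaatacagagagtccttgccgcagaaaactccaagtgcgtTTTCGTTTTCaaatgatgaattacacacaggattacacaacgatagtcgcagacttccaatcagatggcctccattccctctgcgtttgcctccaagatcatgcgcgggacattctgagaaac

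In the Gm16675 window the first capitals match the NF-kB site and the second the interferon element, both on the strand opposite to the one printed, and the Gm7160 window holds neither. The interferon core occurs in 3.44% of 32851 RefSeq promoter windows and in 8 of the 190 lncRNA windows that start within 1 kb of the annotated start (4.21%). Of those 190, 62 belonged to higher lncRNAs, of which 6 held the core, and 23 to lower ones, of which 0 did. The 6 are Gm16675, Ptgs2os2, Gm26797, Gm6602, Gm5860 and Gm21917. The NF-kB site is in 1.63% of all windows, in 2 of the 62 and in 3 of the 23. The AP-1 site TGANTCA is in 7.81% of all windows, in 5 of the 62 and in 0 of the 23. A match describes letters only and shows no binding.

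Gm16675 was at 4.14, 3.68 and 3.19 CPM in the vehicle libraries and at 7.19, 7.59 and 7.91 CPM in those labelled deleted (log2 fold change 1.05, SE 0.115, edgeR adjusted p = 1.73e-05). Irf2 was at 7.76, 9.55 and 7.73 CPM against 15.1, 15.7 and 15.9 CPM (0.90, edgeR adjusted p = 2.95e-06). The arms did not overlap for Gm16675 or for Irf2. Gm7160 was at 4.11, 4.83 and 4.35 CPM against 8.72, 7.85 and 9.68 CPM (0.99, edgeR adjusted p = 1.59e-05), and Zcchc2 at 25.7, 26.3 and 26.6 CPM against 53.8, 56.1 and 57.5 CPM (1.09, adjusted p = 3.44e-09). Gm16675 and Gm7160 also belong to the 31 genes that met 5 CPM only through the deleted arm, so their own differences are a description; the choice did not use Irf2 or Zcchc2. Gm20186 parted from its partner Lsm8, which encodes a subunit of the ring on U6 small nuclear RNA and fell by 0.16 (edgeR adjusted p = 0.0338).

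In all, 46 lncRNAs were divergent from a protein-coding start. Of these, 20 were higher (43.5%) and 4 lower (8.70%), beside 33.1% and 7.87% of the 610 and 28.6% and 29.9% of all genes at 5 CPM or more. The 20 include Gm16675 and Gm7160, which met 5 CPM only through the deleted arm. Among the 20, the nearest protein-coding gene was higher in 13, lower in 1, not called in 5 and not tested in 1. For the 22 divergent lncRNAs that were not called, the nearest protein-coding gene was higher in 3, lower in 2, not called in 14 and not tested in 3. That gene was found by the gap between gene bodies and need not be the head-to-head partner. The log2 fold changes of lncRNA and nearest protein-coding gene had a Pearson r of 0.48 and a Spearman rho of 0.43 over 42 pairs. The genes of a pair share libraries, and r is given as a description. Further pairs that rose together were 2010110E17Rik (0.45) with N4bp1 (0.92), an RNA endonuclease, 1810013D15Rik (0.33) with Cth (1.22), an enzyme of cysteine synthesis, and 4933433G15Rik (0.33) with Mapk6 (0.67). Cep83os (chr10:94671025-94688576, minus strand), whose start lies 78 bp from that of the centriole gene Cep83, was the largest fall of the class. It was at 8.14, 8.03 and 8.15 CPM against 4.48, 4.81 and 4.73 CPM (-0.80, edgeR adjusted p = 2.60e-05), while Cep83 changed by -0.27 (adjusted p = 0.00548). Cep83os is one of the 14 genes that met 5 CPM only through the vehicle arm, so a fall was built into its choice and its own difference is a description.

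**Figure D5:**
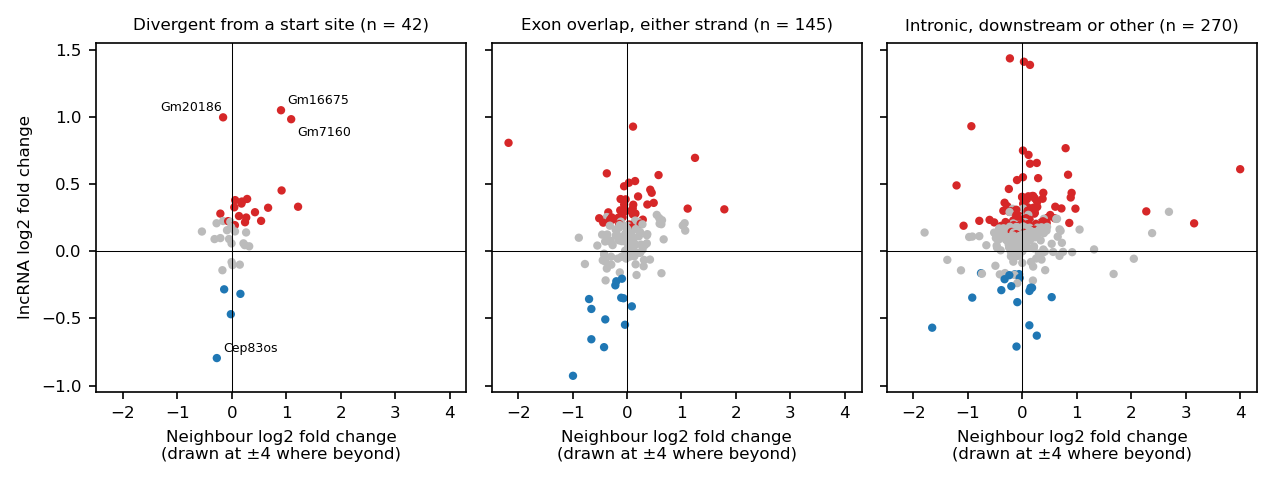
Each point is an lncRNA gene with a tested nearest protein-coding gene, with the neighbour's edgeR log2 fold change on the x axis and the lncRNA's on the y axis, in 3 groups of position. Red was called higher, blue lower and grey not called; the 42 divergent pairs have a Pearson r of 0.48, with Gm16675 and Gm7160 at the upper right and Cep83os at the lower left. Gm16675 and Gm7160 met 5 CPM only through the deleted arm, and Cep83os only through the vehicle arm.

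Over all positions, 155 of the 202 higher lncRNAs had a tested neighbour, which was higher in 36.1% and lower in 16.8%. Of the 48 lower lncRNAs, 35 had one, which was lower in 40.0% and higher in 8.57%. For the lncRNAs not called the shares were 27.3% higher and 28.5% lower of 267. The Pearson r over all 457 pairs was 0.20. It was 0.77 over 8 lncRNAs that share exon sequence with a coding gene on the same strand, where reads cannot be told apart, 0.19 over 137 that overlap exons on the other strand, 0.25 over 111 within introns and 0.11 over 138 at no such position.

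Antisense overlap was the commonest tie to a coding gene: 177 lncRNAs covered exons of one on the other strand. Of these, 45 were higher (25.4%) and 15 lower (8.47%), beside 33.1% and 7.87% of the 610. Among all genes at 5 CPM or more the shares were 28.6% and 29.9%. The kit keeps strand, but the strand setting of the counting is not known, so reads of an overlapping pair cannot be told apart with certainty. 9330175E14Rik overlaps Nlrc5, the activator of MHC class I genes, over 1.31% of its exon length. It was at 9.16, 9.65 and 7.73 CPM against 14.3, 15.2 and 13.4 CPM (log2 fold change 0.70, edgeR adjusted p = 1.03e-05), beside 1.25 for Nlrc5. B230398E01Rik, which overlaps Rfx5, a factor of MHC class II promoters, over 75.1% of its exons, rose by 0.57 beside 0.58 for Rfx5. Junos rose by 0.44 beside 0.45 for Jun, the AP-1 subunit. Il1bos rose by 0.32 (edgeR adjusted p = 0.0168) while Il1b, the interleukin gene it overlaps, was at 0 in every library.

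Within introns lay 136 lncRNAs, of which 47 were higher (34.6%) and 8 lower (5.88%). The shares were 33.1% and 7.87% of the 610, and 28.6% and 29.9% of all genes at 5 CPM or more. The host gene ran on the same strand for 79 of them, where an unspliced host transcript would carry the same sequence, and on the other strand for 57. Of the 79, 29 were higher (36.7%) and 4 lower (5.06%), and of the 57, 18 (31.6%) and 4 (7.02%). Gdap10, inside Nampt, the enzyme of NAD salvage, was at 30.5, 29.6 and 24.9 CPM against 48.1, 49.5 and 46.7 CPM (log2 fold change 0.77, edgeR adjusted p = 4.92e-07), beside 0.80 for Nampt. Gdap10 and the overlapping and further divergent pairs named beside it, outside the 12 largest changes each way, were chosen after their values were seen. Of 375 lncRNAs with no near-identical copy, no exon overlap and no overlap with ribosomal RNA, 136 were higher (36.3%) and 21 lower (5.60%).

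The largest falls were led by Gm11816, an antisense RNA within an intron of Clvs1, at 10.4, 9.35 and 10.9 CPM in the vehicle libraries and 5.60, 5.30 and 4.48 CPM in those labelled deleted (log2 fold change -0.996, SE 0.102, edgeR adjusted p = 1.05e-05). Next came 3110039M20Rik, at 27.5, 26.1 and 26.5 CPM against 14.99, 14.1 and 13.0 CPM (-0.93, edgeR adjusted p = 2.47e-07), which shares exon sequence with Gm43517 (-0.99). Every deleted library was below every vehicle library for all 12 falls, of which 4 (Cep83os, Sp3os, 4930579C12Rik and Hoxb3os) met 5 CPM only through the vehicle arm. The falls too were picked among called genes with the same sign in every pair, so this lack of overlap follows largely from the choice. The arms did not overlap in 91.7% of all 48 lower lncRNAs, and downward in 32.3% of all genes at 5 CPM or more. The histone locus gene Gm42743 (-0.66) overlaps Hist2h2bb on the same strand, which changed by -0.65 (edgeR adjusted p = 4.94e-06). Sp3os (-0.71) overlaps Sp3, a transcription factor of GC-rich promoters, which changed by -0.42 (edgeR adjusted p = 8.93e-06). Kirrel3os (-0.57) lies in Kirrel3, a cell adhesion gene, which fell further (-1.65, edgeR adjusted p = 2.20e-08). Wincr1, named for its induction by Wnt signals, was at 12.4, 12.3 and 12.1 CPM against 8.04, 8.23 and 7.55 CPM (-0.63), while its neighbour Mtap rose by 0.27. 4930579C12Rik (-0.67), which has near-identical copies, and E130307A14Rik (-0.55), antisense to Traf3ip2 (-0.04, not called), complete the list with Cep83os, Dnm3os, Peg13 and Hoxb3os. The nearest coding gene of the 12 was lower in 6, higher in 1, not called in 3 and not tested in 2.

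Imprinted lncRNAs are read from 1 parental chromosome. Of 7 tested, 1 was higher and 4 lower (median log2 fold change -0.17), beside 25.0% and 24.6% of all genes tested, and 4 of these belong to the 610. Kcnq1ot1, which silences neighbours of Kcnq1 in cis, was at 486, 517 and 442 CPM against 549, 587 and 588 CPM (0.26, edgeR adjusted p = 0.00174). Peg13 (chr15:72805600-72810324, minus strand), within an intron of Trappc9, was at 24.4, 25.1 and 26.7 CPM against 15.8, 16.5 and 14.3 CPM (-0.71, edgeR adjusted p = 7.07e-06), with Trappc9 not called (-0.11, adjusted p = 0.0538). Airn, the antisense repressor of Igf2r, was at 20.01, 20.96 and 19.6 CPM against 17.5, 17.3 and 18.9995 CPM (-0.17, edgeR adjusted p = 0.0477). The Airn call was lost without the fibroblast pair (-0.18, edgeR adjusted p = 0.0645), without the lymphoma pair (-0.12, adjusted p = 0.320) and with DESeq2 (-0.17, adjusted p = 0.263). Nespas, antisense at the Gnas locus, was at 23.7 ± 1.12 and 25.0 ± 0.660 CPM (SD, n = 3 per arm) and was not called (edgeR adjusted p = 0.259). Of 6 Hox cluster lncRNAs tested, 0 were higher and 2 lower, beside the same 25.0% and 24.6%. Hoxb3os, the 1 among the 610, was at 6.81, 7.02 and 6.61 CPM against 5.09, 4.36 and 4.91 CPM (-0.51), beside -0.40 for Hoxb3, whose exons it covers.

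Of 7 tested lncRNAs known to be linked to p53, 4 were higher and 0 lower, in cells that the labels call p53-null, beside 25.0% and 24.6% of all genes tested and 33.1% and 7.87% of the 610. Of the list, 5 belong to the 610. Pvt1, which lies beside Myc and whose promoter limits Myc, was at 71.2, 74.3 and 68.0 CPM against 90.9, 89.6 and 88.4 CPM (log2 fold change 0.33, edgeR adjusted p = 4.83e-05), beside 0.61 for Myc, 47612 bp away. Tug1, which works in the nucleus with Polycomb proteins, was at 174, 166 and 160 CPM against 203, 200 and 205 CPM (0.28, edgeR adjusted p = 0.000273). Neither gene overlapped between the arms. Lncpint was at 12.4 ± 0.400 and 13.1 ± 0.946 CPM and Lockd, downstream of Cdkn1b, at 94.9 ± 6.57 and 97.7 ± 4.87 CPM (SD, n = 3 per arm), and neither was called (edgeR adjusted p = 0.407 and 0.457), while Cdkn1b changed by -0.47.

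Of 10 tested lncRNAs linked to inflammation, 4 were higher and 0 lower, beside 25.0% and 24.6% of all genes tested and 33.1% and 7.87% of the 610, with a median log2 fold change of -0.00064. The 4 were Mir155hg, Mir17hg, Ptgs2os2 and Gm14005. Ptgs2os2, known as lincRNA-Cox2, a regulator of inflammatory genes, was at 11.7, 10.8 and 11.1 CPM against 15.6, 14.5 and 14.3 CPM (0.40, edgeR adjusted p = 0.000377), beside 0.89 for Ptgs2, 50816 bp away. Gm14005 (chr2:128178319-128502765, minus strand), known as Morrbid, a repressor of the death gene Bcl2l11 in myeloid cells, was at 15.6, 14.2 and 15.7 CPM against 24.1, 25.5 and 25.4 CPM (0.72, SE 0.0631, edgeR adjusted p = 2.86e-06). Bcl2l11, 15772 bp away, was not called (0.11, edgeR adjusted p = 0.285). Mirt1 (-0.05, edgeR adjusted p = 0.637) and Gm16685 (0.01, adjusted p = 0.962) were not called either. In the same libraries 75 of 75 interferon-response genes and 29 of 30 tested NF-kB and inflammation genes were higher, with medians of 2.97 and 1.43, and each of the 4 lncRNAs lay below both medians. Only 1 of the 610 had a gene of the interferon list as its nearest coding gene and 2 had one of the NF-kB list, and these 3 (beside Nlrc5, Ptgs2 and Il1b) were higher.

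Epb41l4aos was at 14.0, 14.0 and 15.5 CPM against 13.1, 10.8 and 11.6 CPM (log2 fold change -0.29, edgeR adjusted p = 0.00810). Its call was lost without the lymphoma pair (-0.26, edgeR adjusted p = 0.0542), without the sarcoma pair (-0.23, adjusted p = 0.0644) and with DESeq2 (-0.30, adjusted p = 0.0811).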

How the data were processed

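RNA was measured in 6 stranded total RNA libraries prepared after ribosomal RNA depletion, per the labels' protocols. The deposited files hold estimated counts and TPM per transcript, which the authors made with kallisto 0.43.0 for the GRCm38 build, per the submitters' processing notes. Which strand setting and transcript set were used is not given in the sources used here. Of 76055 targets, 75049 matched GENCODE M21, and the other 1006 (0.393% to 0.410% of estimated counts) were left out. Of 51165 protein-coding targets, 94.1% had the coding length only, whereas 97.1% of 9208 lncRNA targets had full length, so untranslated regions of coding genes that lie in lncRNA exons could be counted there.

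Estimated counts were summed per gene, rounded and tested with edgeR 4.0.16 (quasi-likelihood, two-sided, TMM, filterByExpr by arm, cell label as block, 2 residual and 9.23 prior degrees of freedom, Benjamini-Hochberg over 15933 genes, threshold 0.05). Each library pair shares a cell label, which is where the pairing comes from; each library's departure from its arm's mean correlated with that of its pair at 0.0324, 0.139 and 0.141. Libraries of an arm differed beyond sampling noise (chi-square per degree of freedom 11.2 to 112). TMM factors were 0.984 to 1.02. TPM was summed per gene for levels between genes and for limma 3.58.1. The nearest protein-coding gene was found by the gap between gene bodies; divergent means opposite strands with starts within 1 kb. A position class was given in the order exon overlap on the same strand, exon overlap on the other strand, divergent, within an intron, downstream on the same strand within 10 kb, other. Near-identical copies are transcripts matching at 95% identity over 50% of a member transcript (blastn 2.17.0).

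Named genes are Malat1, Neat1, the 5 with the highest TPM, members of the lncRNA lists, the 12 largest rises and 12 largest falls with the same sign in every pair, their neighbours, and 3 genes either side of 5 CPM. The members and lists were chosen with earlier results of these data known. Alternatives were DESeq2 1.42.0, upper-quartile scaling, no filter, no block, each pair left out, long RNAs only, limma on log2(TPM + 1), and other limits for membership. Counts were also simulated for the comparison of arms (15738 genes, 200 changed). In them all genes changed by 0.5 on the log2 scale or more were recovered (100%), and 3.38% of calls were false. The data differ from this design, since 7901 of the 15933 genes tested (49.6%) were called. Both rates therefore describe the simulated counts only and are not estimates for the calls reported here.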

Additional observations from a re-analysis of the deposited data

Results flagged for a closer look

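Among the 610 lncRNA genes, 3 moved by more than a small amount in opposite directions in different labelled pairs. With 1 library per group these differences between pairs were not tested. For Gm26822 the log2 ratio of the library labelled deleted over the vehicle one was -0.548 in the fibroblast pair, 0.527 in the lymphoma pair and 0.562 in the sarcoma pair, from 948, 548 and 494 CPM to 648, 789 and 730 CPM. For Gm15564 the ratios were -0.556, 0.376 and 1.14, from 8.57, 5.30 and 1.96 CPM to 5.67, 7.03 and 4.95 CPM. For AY036118, which overlaps an annotated ribosomal RNA gene, they were -0.986, 1.59 and 3.43. In all 3 genes the vehicle library labelled fibroblasts was the highest of the vehicle libraries and the one labelled sarcoma the lowest, the order in which annotated ribosomal RNA stood (2.91%, 0.631% and 0.201% of counts), and its part was not tested.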

How the results depend on the processing

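No lncRNA called in either direction was called in the opposite one under any setting run. Of the 202 higher and 48 lower lncRNAs, counts were 77 and 26 with DESeq2, 69 and 15 with limma on log2(TPM + 1), 129 and 28 among the 324 genes of at least 10 CPM (a smaller set), and 164 and 43 without the replicate block. Upper-quartile scaling gave 144 higher and 56 lower. With it the median log2 fold change was 0.103 for the 610, in place of 0.142, and -0.025 for all genes tested, in place of 0.015. Among 375 without copies or overlaps, an alternative chosen after seeing the data, 21 were lower. Leaving out 1 pair gave 102 to 221 higher and 35 to 49 lower. At least 2-fold, 5 rose, or 3 to 8 with 1 pair left out, and 0 fell, against 0 to 1 with 1 pair left out and 1 with upper-quartile scaling, without a filter, or with long RNAs only. The share of calls that were higher was 80.8%, and 67.5% to 84.0% over the settings. Among calls over all genes that share was 50.4%, and 42.8% to 60.2% over the settings. The summed share differed by 1.16 percentage points. Without the 2 most counted genes it differed by 0.238, with overlapping arms (exact permutation p = 0.4). Without the ribosomal repeat genes, an exclusion chosen after seeing the data, it differed by 0.336. Genes that were not called changed sign under some settings: Gm42428 (-0.0011 with DESeq2, -0.038 upper-quartile, -0.024 without a filter, -0.12 to 0.091 with 1 pair left out, -0.0057 with long RNAs only), Gm16685 (-0.034 upper-quartile, -0.020 without a filter, -0.058 to 0.045 with 1 pair left out, -0.0027 with long RNAs only), and with limma Lncpint (-0.11), Lockd (-0.13) and Mirt1 (0.016). With limma, Neat1, Kcnq1ot1, Mir17hg, Gm10076, Airn and Epb41l4aos kept their sign and were not called. The replicate block, which follows the cell labels, changed no named call. The cause of these shifts was not tested. The lowest count of any of the 610 genes in a library was 74.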

Other observations

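Among the 5228 candidate lncRNA genes under 5 CPM, 1454 were tested, 161 were higher and 73 lower in the libraries labelled Mdm2 deleted (beside 25.0% and 24.6% of all genes tested), and 49 rose (3.37%, beside 4.77% of all genes tested) and 7 fell at least 2-fold; the 610 expressed genes had 5 and 0. Of the 49, 4 are given here. Gm45418, divergent from the helicase gene Ddx60 with a gap of 59 bp, was at 0.246, 0.0675 and 0.0797 CPM in the vehicle libraries and 2.002, 2.25 and 1.77 CPM in the others (log2 fold change 3.94, edgeR adjusted p = 2.56e-06), beside 3.48 for Ddx60. BC051226, divergent from the chaperone gene Daxx, was at 1.61, 1.15 and 2.04 CPM against 3.83, 4.28 and 4.41 CPM (1.37, edgeR adjusted p = 3.57e-05), beside 1.75 for Daxx. Gm15133 rose with Trim12a (2.64 beside 2.52). Gm43069, antisense to Oas1c, had 0 counts in the vehicle libraries and 64 in the others, which is at least 24.3-fold higher when the vehicle arm is set to 3 counts. These genes were chosen after their values were seen, and each lies beside a coding gene that rose. Other rises of the 49 did not: Gm28876 (2.91) lies nearest Smug1 (0.05, not called) and 4930599N23Rik (2.30) overlaps Kdm7a (-0.04, not called). Gm14010 (4.33) lies nearest Spdye4c, which was not tested. The calls of the neighbours of all 49 were not counted. Of 11 X-linked lncRNA genes at 5 CPM or more, left out by the rule, 5 were higher and 0 lower, and 0 of them changed at least 2-fold.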
